A study of Mus musculus with 8 samples.

Results

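Lymphatic capillary endothelial cells were described among YFP-positive cells sorted from mouse mesentery and epididymal adipose tissue and profiled by 10x Genomics 3' single-cell RNA sequencing. Members were chosen by their own counts of unique molecular identifiers (UMIs, each standing for 1 captured transcript). A barcode, which in most cases is 1 cell, was selected on at least 3 of Prox1, Lyve1, Mmrn1, Reln and Flt4 with 1 UMI or more, Lyve1 or Reln among them. It also had 0 UMIs of Foxp2, Ackr4, Ptprc and Gja5, a minimum of 500 UMIs and 300 genes, and no more than 10% of UMIs from mitochondrial genes. The rule found 2113 of the 23996 barcodes that passed these quality limits (8.81%), out of 27944 deposited.

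All groups came from male ROSA26-eYFP+/+ Cdh5-CreERT2+ mice given tamoxifen in the diet for 2 weeks from 6 weeks of age. The Cdh5 promoter drives the inducible recombinase, so the reporter marks cells that expressed this endothelial cadherin at the time of tamoxifen, in blood and lymphatic vessels alike. From 8 weeks of age the mice ate normal chow with 5.8% fat or a high-fat diet (HFD) with 60% fat for 12 to 13 weeks. The 4 groups were mesentery on chow, mesentery on HFD, adipose on chow and adipose on HFD, with 2 libraries each, called runs A and B because the experiment was repeated. Tissue of 6 mice was pooled for each library. A group therefore has 2 pools, and every p-value measures the spread between pools.

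Lymphatic capillaries are blind-ended vessels that take up interstitial fluid, chylomicrons and migrating leukocytes. Their cells are joined loosely, express the hyaluronan receptor Lyve1 and depend on the transcription factor Prox1 and on the receptor Flt4 (VEGFR3), which binds Vegfc. They secrete the chemokine Ccl21, which draws dendritic cells and lymphocytes that carry its receptor. Mesenteric lymphatics drain the gut and carry dietary fat, and those of the epididymal fat pad drain adipose tissue. Downstream collecting vessels have valves, whose leaflets hold fibronectin and cells rich in connexins.

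Members numbered 325, 271, 320 and 77 in mesentery chow A, chow B, HFD A and HFD B. The adipose libraries held 600, 100, 329 and 91 members in the same order. Summed over members, a library had 422606 to 1610419 UMIs, and the median member had 1315 to 4906 UMIs. Adipose chow A had the lowest median and mesentery chow B the highest. The same barcode sequence occurred in 2 libraries at most 10 times for any pair of libraries. Levels below are CPM, the summed member UMIs of a gene relative to all of them in the library, scaled by TMM.

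The 5 markers that chose the members are given as a description. Lyve1 was at 5139, 4272, 4104, 6389, 3606, 3601, 3106 and 4417 CPM over the 8 libraries, in the order mesentery chow A and B, mesentery HFD A and B, adipose chow A and B, adipose HFD A and B. In the same order Mmrn1, a secreted multimerin, was at 4115, 2374, 2585, 4176, 3755, 4882, 3018 and 3841 CPM. Flt4 was at 979, 514, 979, 860.4, 1202, 891, 1115 and 864 CPM, lowest in mesentery chow B. At the edge of the rule, the 460 members with exactly 3 markers had 417 Prox1 and 7188 Ccl21a CPM over all libraries. The 310 barcodes with 2 markers, just outside, had 288 and 3491. A further 506 barcodes had at least 3 markers but also Foxp2 or Ackr4, genes of collecting vessels, and are called collecting-marker barcodes here.

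Genes outside the rule bore out the lymphatic label. Class levels, CPM without TMM scaling, are means ± SD over the 8 libraries, and since the classes were cut from the same cells they are given without a test. Ccl21a was at 29221 ± 15748 in members, 16329 ± 10941 in collecting-marker barcodes and 367 ± 564 in blood endothelial barcodes. Podoplanin (Pdpn) was at 332 ± 134 against 3.23 ± 4.27 in blood endothelium, and the transcription factor Maf at 1080.3 ± 422 against 8.14 ± 5.37. The chemokine scavenger Ackr2 was at 160.4 ± 46.3 in members and 72.2 ± 24.6 in collecting-marker barcodes, and was higher in members in 8 of 8 libraries. Some blood endothelial genes were low: the VEGF receptor Flt1 was at 36.5 ± 31.9 in members and 922 ± 186 in blood endothelium. Fabp4, a fatty-acid binding protein of adipose capillaries, was at 852 ± 605 against 26278 ± 22482. Not all were low. In adipose chow B, 51% of members and 22.7% of blood endothelial barcodes had a UMI of Plvap, a further blood endothelial marker. In adipose HFD B these were 57.1 and 47.9%, while in every other library the percentage was lower in members. Sox18 and Hhex did not separate the classes and were above blood endothelium in only 2 of 8 libraries each.

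The share of members differed far more between the runs than between the groups. Members were 20.7, 32.3, 31.3 and 24.8% of passing barcodes in the run A libraries of mesentery chow, mesentery HFD, adipose chow and adipose HFD. The run B libraries had 5.28, 2.57, 1.77 and 2.06%. Run A averaged 27.3% ± 5.46 (SD, n = 4) and run B 2.92% ± 1.61 (n = 4), so every run A library was above every run B library. Between chow and HFD the mean share differed by 4.41 percentage points in mesentery (17.4% ± 21.0 on HFD against 13.0% ± 10.9, n = 2 each, exact permutation test, two-sided p = 1). The smallest p that 2 against 2 allows is 0.33, but it could not be reached here. The tests of shares did not match runs, and each group holds 1 run A and 1 run B library. Splits by run gave larger differences than the diets did, so the p does not measure a diet difference within runs. Matched by run, mesentery HFD was above chow in run A and below it in run B, and adipose was the reverse. In adipose the mean was 13.5% ± 16.1 on HFD and 16.5% ± 20.9 on chow (exact p = 1), and between the tissues it differed by 0.226 points (4 against 4, exact p = 0.943). The counting software named in the file headers differs between runs as well, and what set the share was not tested.

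**Figure D1:**
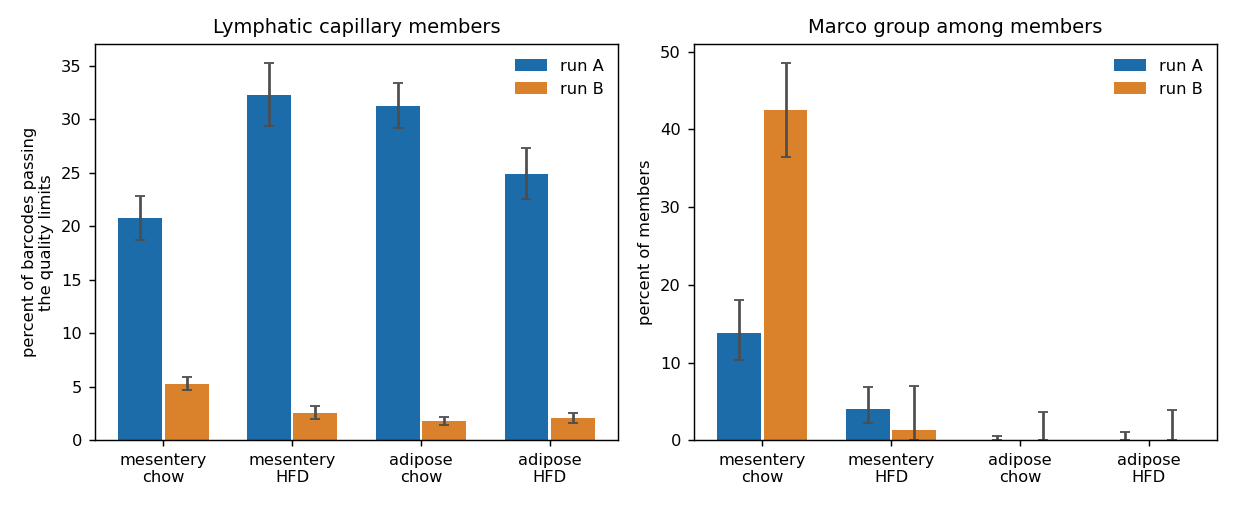
Bars give, for each group and run, the percentage of passing barcodes that were lymphatic capillary members (left) and the percentage of members in the Marco group (right), with exact binomial 95% intervals that cover counting error only. Run A shares lie between 20.7 and 32.3% and run B shares between 1.77 and 5.28%, and the Marco group reaches 42.4% in mesentery chow B and 0% in the 4 adipose libraries.

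A distinct set of members was found in the mesentery. It was defined after values had been seen, as barcodes with a UMI of at least 3 of Marco, Msr1, Itga2b, Clec4g, Ltbp2, Cyp1b1, Bmp2 and Madcam1, and is called the Marco group. It made up 45 of 325 members in mesentery chow A (13.8%, exact 95% interval 10.3 to 18.1) and 115 of 271 in chow B (42.4%, 36.5 to 48.6). On HFD it was 13 of 320 in run A (4.06%, 2.18 to 6.85) and 1 of 77 in run B (1.3%, 0.0329 to 7.02). The adipose libraries had 0 of 600, 0 of 100, 0 of 329 and 0 of 91, with exact upper limits of 0.613, 3.62, 1.11 and 3.97%. Both chow libraries of the mesentery were thus above both HFD libraries, while the single barcode of mesentery HFD B leaves an interval that overlaps those of the adipose libraries. Only 3 mesenteric members had exactly 2 of the 8 genes. Because the genes were chosen as those that set these barcodes apart, such a gap follows from the choice.

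Genes that chose the group are given as a description. The scavenger receptor Marco was at 4598, 3787 and 2701 CPM in the group of mesentery chow A, chow B and HFD A, and at 1.68, 16.9 and 2.68 in the other members. Msr1, a further scavenger receptor, was at 312, 504 and 319 and was not seen in the others. Other genes that the definition did not use, named after their values were seen, stood far apart as well. Clu (clusterin, a secreted chaperone) was at 6522, 7505 and 7304 against 55.5, 40.6 and 14.3, and the macrophage growth factor Csf1 at 843, 845 and 479 against 18.5, 38.9 and 8.94. Glycam1, an L-selectin ligand of high endothelial venules, was at 1373, 1614 and 2860.4 against 38.7, 8.45 and 30.4, and the complement gene C3 at 1369, 1120.0 and 1251 against 13.5, 49.0 and 39.3.

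The same barcodes nearly lacked the main products of lymphatic capillaries. Ccl21a was at 25.7, 6.87 and 905 CPM in the group against 15492, 29570.3 and 23724 in the other members of those libraries. Fgl2, a secreted fibrinogen-like protein, was at 21.4, 15.7 and 159.6 against 2785, 3574 and 1751. Among the markers of the rule, Mmrn1 was at 278, 132 and 333 against 5645, 6353 and 2656 and Reln at 103, 31.4 and 213 against 1697, 2013 and 1129. Prox1 stayed close, at 530.3, 427 and 359 against 541, 629 and 547, and Lyve1 was at 2532, 2283 and 2009 against 6191, 7908 and 4118. Of these, Ccl21a and Fgl2 lie outside the rule that chose the members, and by these 2 genes the Marco group goes against the label of capillary endothelium. As background, Marco, Msr1, Itga2b, Clec4g and Madcam1 are known from the lymphatic endothelium that lines lymph node sinuses, and some of them also from macrophages, platelets or venules.

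Depth and markers of other cells beside the Marco group were these. Its median barcode had 4924, 7637 and 6398 UMIs in those 3 libraries, against 1919, 2982.5 and 3197 for the other members. Called doublets were 1 of 45 and 4 of 115 in the 2 chow libraries. Sums over marker lists are CPM without TMM scaling. The 11 macrophage markers, each with a UMI somewhere in members, summed to 34.8 to 37.4 CPM in the mesenteric chow libraries and 8.53 to 92.9 CPM elsewhere. The share of barcodes with both Cd79a and Cd79b, as B cells have, was 3.64, 2.36, 11.8 and 1.37% of passing barcodes in mesentery chow A, chow B, HFD A and HFD B, against at most 0.0907% in adipose. Among the mesenteric libraries both values were highest in HFD A, and the macrophage sum is over all members, not the Marco group alone. Blood endothelial barcodes with at least 5 Glycam1 UMIs were 10 of 654, 38 of 3113, 12 of 203 and 4 of 2359 in the mesenteric libraries. In adipose they numbered 0, 0, 0 and 2 in the same order. What these values mean for the origin of the group was not tested. By the same 8 genes, 17 of 54, 87 of 195, 6 of 48 and 1 of 42 collecting-marker barcodes of those mesenteric libraries belonged to the group as well. Whether lymph node tissue was taken with the mesentery was not tested. Every comparison below was therefore made for all members and again for the 1939 members outside the Marco group, called the remaining members.

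**Figure D2:**
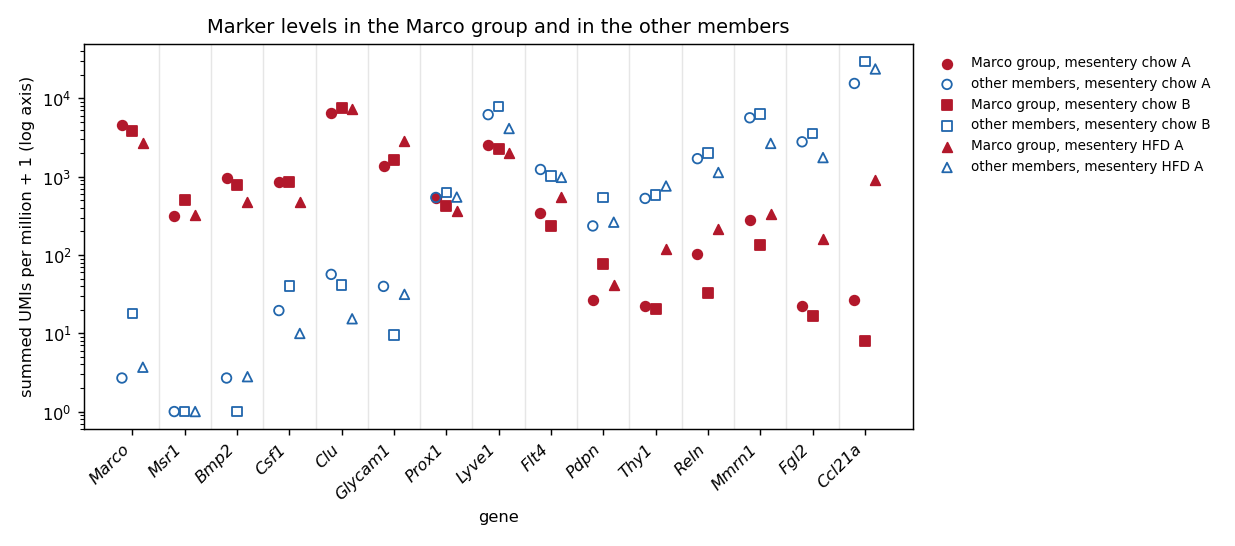
CPM plus 1 (log axis) for 15 genes in the Marco group (filled) and the other members (open) of the 3 mesenteric libraries that hold at least 13 barcodes of the group. Marco, Msr1 and Bmp2 chose the group. Ccl21a is at 6.87 to 905 in the group and at 15492 to 29570 in the others. Prox1, one of the markers that chose the members, lies between 359 and 629 in both.

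Single genes differed between diets in mesenteric members with and without the Marco group. Fn1 (fibronectin, which valve leaflets contain), Angptl4 (an inhibitor of lipoprotein lipase), Angpt2 (a ligand of the Tie2 receptor needed for lymphatic growth) and S100a4 were higher on HFD in both runs. Tgfbi (a matrix protein induced by TGF-beta) and Igfbp3 (which binds insulin-like growth factors) were lower. Of 8906 genes tested with edgeR's quasi-likelihood test, 12 (0.135%) passed the threshold, an adjusted p (Benjamini-Hochberg) below 0.05, 5 higher (Fn1, Cdh13, H19, S100a4 and Serinc2) and 7 lower on HFD. That count was 0 without mesentery chow B, HFD A or HFD B or without either adipose HFD library, and 7 without adipose chow A. With the run as a replicate block, which the repeated experiment allows, 403 were called (4.53%), 128 higher and 275 lower, and without single libraries 718 (mesentery chow A), 223 (chow B) and 123 (HFD B). In the remaining members, of 7891 genes, none was called without the block (0%, with 433 at an unadjusted p under 0.05) and 206 with it (2.61%), 75 higher and 131 lower, and 112, 112, 76 and 77 without mesentery chow A, chow B, HFD A and HFD B. DESeq2 called 97 in all members and limma-voom 6. Only 77 genes were called in both blocked fits, 76 of them in the same direction, which is 19.1% of the first list and 37.4% of the second.

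Fn1 was at 77.0 and 64.7 CPM in chow A and B and at 514 and 571 CPM in HFD A and B. The groups did not overlap, and a UMI of Fn1 was found in 42 and 39 of 325 and 271 members on chow and in 142 and 34 of 320 and 77 on HFD. Among the remaining members these were 12.1, 13.5, 45 and 44.7%, and 5.76, 6.62, 24.2 and 23.9% after each barcode was thinned to 1000 UMIs, which left 243 of 280, 151 of 156, 293 of 307 and 71 of 76. The log2 fold change was 2.94 ± 0.35 (SE, adjusted p = 0.0362), or 2.94 ± 0.28 with the block (adjusted p = 5.25e-05). Among the remaining members it was 2.99 ± 0.25 (block, adjusted p = 2.23e-06). With each library left out in turn, that value lay between 2.83 and 3.17. Fn1 was the only gene of the listed pathways that was called higher on HFD without the block. Fn1, H19, S100a4, Stmn1, Tgfbi and Igfbp3 kept their calls in the blocked fits of both sets of members without any single library.

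A connexin and a claudin of valves and collecting vessels were higher on HFD too in the remaining members. Gja4 (connexin 37) was at 16.9 and 59.1 CPM on chow and 86.5 and 127 on HFD in the remaining members (1.57 ± 0.30, block, adjusted p = 0.00661). Cldn11, a tight junction claudin, depended on the Marco group. In all members it was at 54.1 and 98.2 CPM on chow and 44.9 and 58.8 on HFD, whereas in the remaining members it was at 15.2 and 16.9 CPM on chow and 42.3 and 57.1 CPM on HFD (1.61 ± 0.35, block, adjusted p = 0.0142). Of the 11 collecting vessel and valve genes tested, 4 rose in the remaining members and none fell, with a median of 0.86 beside 0.00 for all genes. In all members 2 rose, with a median of 0.68 beside -0.02. Without the block only Fn1 passed in all members and no gene of the list in the remaining ones.

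Angpt2 was at 90.2 and 20.7 CPM on chow and at 288 and 375 on HFD in all members, and at 117 and 40.5 CPM on chow and 301 and 378 CPM on HFD in the remaining ones. The HFD libraries lay above both chow libraries. The change was 2.77 ± 0.45 (block, adjusted p = 0.0021) and 2.14 ± 0.33 (adjusted p = 0.000863). Of 11 genes of lymphangiogenic growth factor signalling tested in all members, 2 rose (Angpt2 and Adm) and 2 fell (Vegfa and Igf1r) with the block. In the remaining members only Angpt2 of 10 was called. The VEGF receptor Kdr was at 747 and 751 CPM on chow and 543 and 821 on HFD, with ranges that overlap (-0.18 ± 0.24, block, adjusted p = 0.833). The co-receptor Nrp2 was at 546 and 382 CPM on chow and 565 and 910.5 CPM on HFD and was not called either (adjusted p = 0.295, block).

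Angptl4 was at 23.7 and 33.8 CPM on chow and 214 and 156 on HFD in the remaining members. In all members the chow libraries were at 74.5 and 78.7 CPM, so the contrast was smaller there. The log2 fold changes were 2.71 ± 0.29 (block, adjusted p = 2.64e-05) and 1.32 ± 0.26 (adjusted p = 0.00737). Without the block the adjusted p was 0.0922 and 0.166. Of the lipid handling genes, Angptl4 rose and Lpl, the lipase it inhibits, fell among 16 tested in the remaining members. Lpl was at 57.6 and 116 CPM on chow and 22.1 and 52.7 on HFD (-1.24 ± 0.30, block, adjusted p = 0.0331), and both HFD libraries were below both chow libraries. In all members Apoe, an apolipoprotein, fell with the block (-2.77 ± 0.48, adjusted p = 0.00332), and it was not called in the remaining members (-0.89 ± 0.31, adjusted p = 0.152).

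Further genes named by size of change rose in both sets of members. S100a4, a calcium-binding protein, was at 3.61 and 3.66 CPM on chow and 44.9 and 56.6 on HFD (3.73 ± 0.48, adjusted p = 0.0372; remaining members 3.33 ± 0.47, block, adjusted p = 0.000332). Its chow level rested on 3 and 6 UMIs. The imprinted noncoding RNA H19 was at 6.01 and 4.88 CPM on chow and 68.2 and 107 on HFD (3.98 ± 0.43, adjusted p = 0.0327; remaining members 3.01 ± 0.37, block, adjusted p = 7.61e-05). It was concentrated in few cells, with a UMI in 25 and 6 of 320 and 77 HFD members. Stmn1, which destabilises microtubules, was at 18.6 and 8.44 CPM on chow and 133 and 112 on HFD in the remaining members (3.17 ± 0.33, block, adjusted p = 1.64e-05). Cdh13 (T-cadherin, which binds adiponectin) was at 18.0 and 14.0 CPM on chow and 124 and 95.8 CPM on HFD, with no overlap (2.80 ± 0.35, adjusted p = 0.0362). For the remaining members its change was 2.37 ± 0.29 (block, adjusted p = 7.61e-05). Rises named by size in all members also took in Lax1, Fam180a, Gpnmb, Olfml2a, Neo1 and Tagln3, each resting on only 25 to 88 UMIs summed over the 4 mesenteric libraries. Ptx3, a pentraxin of innate immunity, was at 66.0 and 13.5 CPM on chow and 149 and 288 CPM on HFD in the remaining members (2.49 ± 0.48, block, adjusted p = 0.00595), but its adjusted p was 0.0839 without mesentery chow B and 0.082 without HFD B. Serinc2 lost its call there without mesentery chow A (adjusted p = 0.159) or HFD A (0.0954).

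Tgfbi and Igfbp3 fell in both sets of members. Tgfbi was at 536 and 376 CPM on chow and 101 and 39.2 on HFD, and at 588 and 618 CPM on chow and 89.3 and 37.4 CPM on HFD in the remaining members. Both HFD libraries were below both chow libraries. The change was -2.79 ± 0.29 (block, adjusted p = 7.98e-05) in all members and -3.32 ± 0.31 (adjusted p = 4.67e-06) in the remaining ones, and -2.66 ± 0.62 without the block (adjusted p = 0.159). Igfbp3 was at 171 and 321 CPM on chow and 29.5 and 13.2 on HFD in the remaining members (-3.22 ± 0.33, block, adjusted p = 1.64e-05). Ackr3, which scavenges Cxcl12 and adrenomedullin, was at 623 and 369.7 CPM on chow and 197 and 143 CPM on HFD there (-1.53 ± 0.22, adjusted p = 0.000354), while in all members it was not called (adjusted p = 0.312). Gucy1a1, a subunit of the nitric oxide receptor guanylate cyclase chosen here after its values were seen, was at 364 and 506 CPM on chow and 93.0 and 125 CPM on HFD (-1.99 ± 0.24, adjusted p = 7.91e-05).

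**Figure D3:**
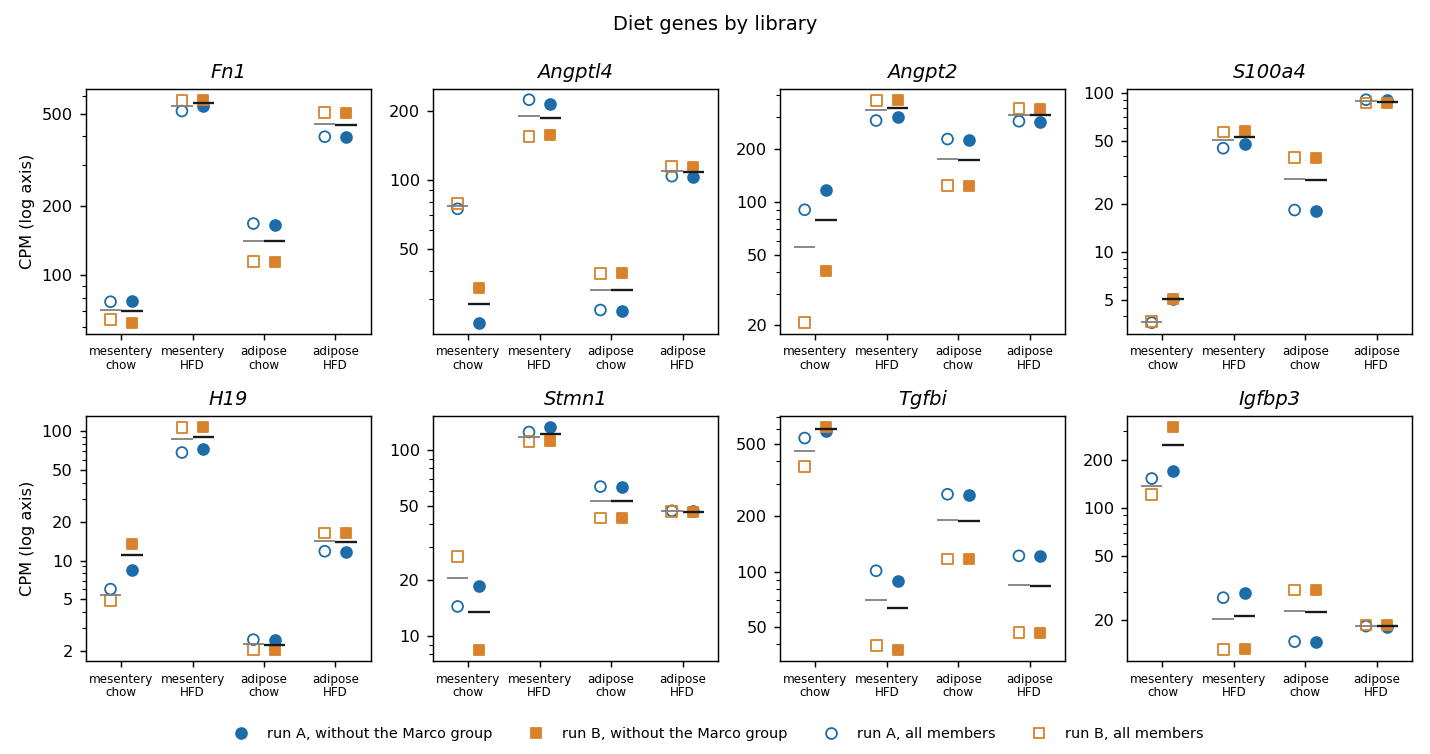
CPM (log axis) of 8 genes by group, with 1 point per library for all members (open) and for the remaining members (filled), run A as circles and run B as squares, and a line at the mean of the 2 libraries. For Fn1, Angptl4, Angpt2, S100a4, H19 and Stmn1 both mesenteric HFD libraries lie above both chow libraries, and for Tgfbi and Igfbp3 both lie below. In adipose the same order without overlap is seen for Fn1, Angptl4, Angpt2, S100a4 and H19. None of them was called there in all members, and H19 rests on 2, 1, 9 and 7 UMIs in the adipose libraries. How many of all genes tested have such an order was not counted.

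Other falls in all members were lost when the Marco group, larger on chow, was left out. Tnc (tenascin C, a matrix protein) was at 195 and 303 CPM on chow and 23.3 and 19.6 on HFD (-3.51 ± 0.36, adjusted p = 0.0327). In the remaining members it was at 15.2 and 32.1 CPM on chow and 13.8 and 19.8 CPM on HFD (-0.48 ± 0.48, block, adjusted p = 0.744). Csf1 was at 250.1 and 539 CPM on chow and 39.7 and 26.1 on HFD (-3.54 ± 0.44, adjusted p = 0.0362), and at 18.6 and 38.8 CPM on chow and 9.2 and 8.79 CPM on HFD in the remaining members (-1.56 ± 0.55, block, adjusted p = 0.16). Lifr, a cytokine receptor chosen after its values were seen, went from -3.39 ± 0.31 to -0.31 ± 0.36 with the block, so its call ended without the group. Most of the falls named by size in all members had almost no UMIs without the group. Robo1, a guidance receptor, had 22, 112, 3 and 0 UMIs in mesentery chow A, chow B, HFD A and HFD B, and none in the remaining members of any library. Pla2g7, Nlrp10, Klhl29, Xlr5c, Tmem132e and C1qtnf7 had at most 2 UMIs per mesenteric library there and Cyp27a1 at most 4, so no fold is given. By contrast, Il33, an alarmin cytokine, kept a fall: it was at 79.6 and 171 CPM on chow and 15.6 and 19.8 on HFD in the remaining members (-2.69 ± 0.42, block, adjusted p = 0.000863), and it too was chosen after its values were seen.

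Antigen presentation followed the same split. Of 8 genes of MHC class I presentation, 4 (Psmb9, B2m, Tap2 and H2-K1) fell on HFD in all members with the block, with a median of -1.22 beside -0.02 for all genes. None was called in the remaining members, where the median was -0.11. B2m, the common light chain, was at 1861 and 3399.6 CPM on chow and 701 and 1451 on HFD (-1.32 ± 0.26, block, adjusted p = 0.00818). Among the remaining members it was at 867 and 1035 CPM on chow and 591 and 1362 CPM on HFD (-0.10 ± 0.25, adjusted p = 0.921). MHC class II went the other way: of 4 genes tested, Cd74 and H2-Eb1 rose in the remaining members with the block and none was called in all members. Cd74, the invariant chain, was at 35.6 and 21.9 CPM on chow and 124 and 136 on HFD there (2.28 ± 0.60, adjusted p = 0.0464). The 5 B cell markers summed to 27.7 CPM in mesentery HFD A, the library with 11.8% B cell barcodes, and to 0 to 3.36 CPM in the other mesenteric libraries, and their part in the rise of MHC class II was not tested. H2-Eb1 lost its call without mesentery chow B (adjusted p = 0.27) or HFD A (0.152).

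Chemokines and adhesion molecules gave few stable calls. Ccl21a was at 11085 and 10676 CPM on chow and 22951 and 38397 on HFD in all members (1.41 ± 0.26, block, adjusted p = 0.00469). In the remaining members it was at 15602 and 29539 CPM on chow and 24423 and 38737 CPM on HFD, a change of 0.52 ± 0.15 that was not called (adjusted p = 0.0802). Icam1, which leukocytes bind, was at 379 and 79.3 CPM on chow and 146 and 30.8 on HFD in the remaining members and fell in both sets with the block (-1.36 ± 0.24, adjusted p = 0.0024, and -1.58 ± 0.28, adjusted p = 0.00397). The groups overlap when runs are not matched, since run A exceeded run B on both diets. Cxcl12 was at 55.9 and 159 CPM on chow and 25.8 and 72.5 CPM on HFD and fell only in the remaining members (-1.16 ± 0.27, adjusted p = 0.0273). Of 18 leukocyte traffic genes tested, 1 rose and 5 fell in all members and none rose and 3 fell in the remaining members.

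Interferon response genes were lower in part of the list. Of 15 tested in the remaining members with the block, Ifit1, Ifit3, Rsad2 and Isg15 fell and Gbp4 rose, with a median of -0.56. Of 16 tested in all members none was called, with a median of -0.66. Isg15, a ubiquitin-like protein, was at 247 and 91.2 CPM on chow and 91.1 and 50.5 on HFD in the remaining members, so chow B and HFD A were level (-1.20 ± 0.31, block, adjusted p = 0.0407). Ifit1 was at 83.0 and 32.1 CPM on chow and 12.9 and 11 CPM on HFD there (-2.23 ± 0.49, adjusted p = 0.0174), and in all members at 73.3 and 23.2 CPM on chow and 25.0 and 39.2 CPM on HFD.

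Markers of blood endothelium moved with the diet. The 13 of them, all with a UMI, summed to 1439 and 1372 CPM on chow and to 1001 and 1077 CPM on HFD in the remaining members of the mesentery. With the block Emcn, Ly6c1 and Ly6a fell and Plvap rose among 9 tested there. Emcn, a sialomucin that capillaries of blood vessels share with these cells, was at 478 and 603 CPM on chow and 183 and 174 CPM on HFD (-1.58 ± 0.22, adjusted p = 0.000255). In all members Ly6c1, Plvap, Selp, Ly6a and Flt1 fell and Aqp1 rose with the block, among 10 tested. Emcn was not called in that set, and the call of Plvap had the opposite direction. The part of these markers in the other changes was not tested.

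Other groups held few calls. Of 11 genes of glycolysis and glucose uptake tested in all members and 10 in the remaining ones, none was called. Among 10 junction genes only Jam3 was called, lower in all members with the block, and none in the remaining ones. Jam3, a junctional adhesion molecule, was at 308 and 425 CPM on chow and 54.4 and 24.0 on HFD in all members, and at 11.9 and 5.06 CPM on chow and 13.8 and 11 CPM on HFD in the remaining ones. Of 14 matrix genes, Fn1 and Col4a2 rose and Sparc fell in all members, and Fn1 rose and Timp3 and Nid2 fell in the remaining members, all with the block. Timp3, an inhibitor of metalloproteinases, was at 3912 and 5985 CPM on chow and 2170.4 and 2129 on HFD there (-1.18 ± 0.19, adjusted p = 0.00116). Of the 15 lymphatic identity genes outside the rule, Ccl21a and Thy1 rose in all members, whereas Cd9 and Fgl2 fell in the remaining ones. Pdpn was at 235 and 540.2 CPM on chow and 269 and 466 CPM on HFD there and was not called (-0.02 ± 0.20, adjusted p = 0.983). Fgl2 was at 2804 and 3571 CPM on chow and 1802 and 2118 on HFD there (-0.70 ± 0.17, block, adjusted p = 0.0343).

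**Figure D4:**
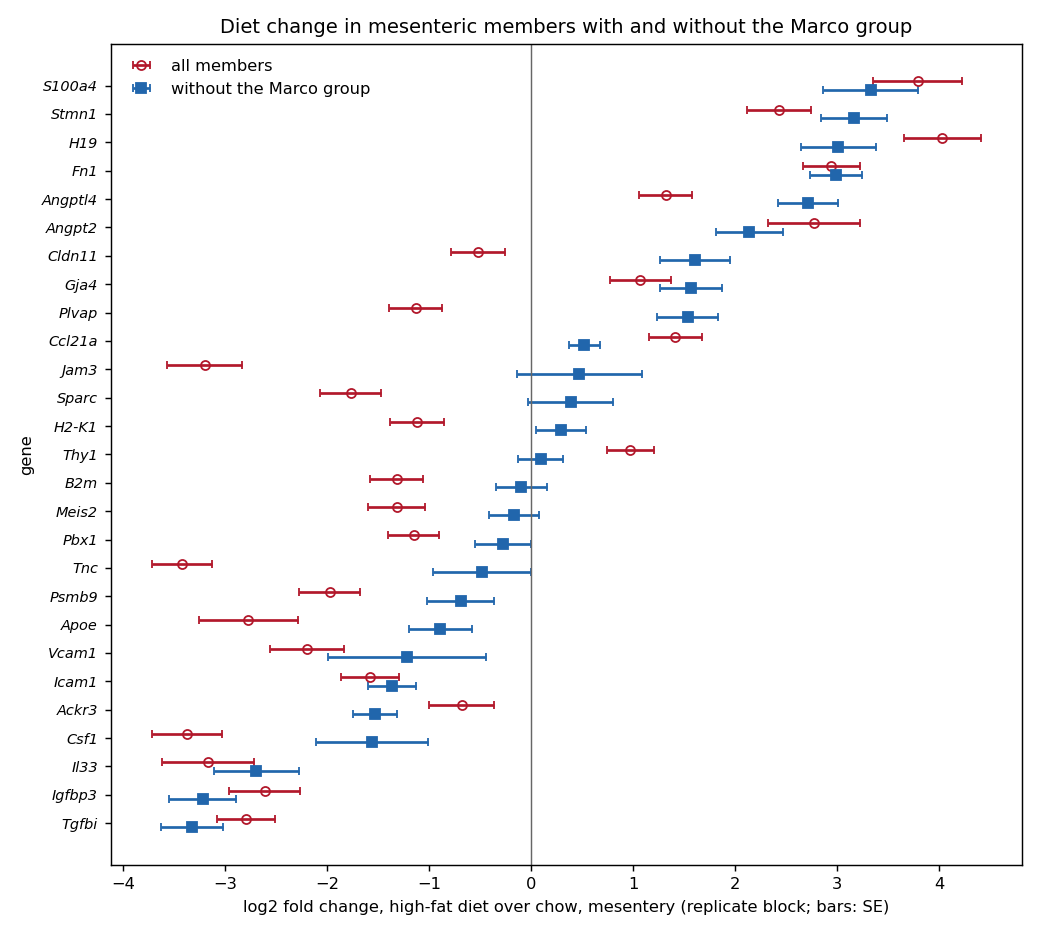
Log2 fold changes of HFD over chow in the mesentery (fit with the replicate block, bars are SE) for 27 genes in all members (open circles) and in the remaining members (squares). Fn1 (2.94 and 2.99) and Tgfbi (-2.79 and -3.32) stay in place, whereas Tnc goes from -3.42 to -0.48 and Plvap from -1.13 to 1.54 when the Marco group is left out. The genes were picked from those described in the text.

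Diet in the adipose tissue gave no call among all members, without the block (0% of 8906 genes, 154 at an unadjusted p under 0.05) or with it (0%, 379 under 0.05). DESeq2 called 1 gene and limma-voom none. The adipose libraries hold no Marco group barcodes, and in the fit without that group, whose estimate of the spread and gene set differ, 9 of 7891 genes were called with the block (0.114%), 5 higher and 4 lower. That count was 23, 0, 32 and 1 without adipose chow A, chow B, HFD A and HFD B, and 13 to 21 without single mesenteric libraries. Without the block that fit again called none (0%, 124 under 0.05). Fn1, Angptl4 and S100a4 were among the 5. Fn1 was at 166 and 115 CPM on chow and 396 and 503 on HFD, with no overlap (1.65 ± 0.23, adjusted p = 0.00733, in all members 0.105). Angptl4 was at 26.7 and 38.9 CPM on chow and 103 and 114 CPM on HFD (1.76 ± 0.30, adjusted p = 0.029, in all members 0.137). S100a4 was at 18.2 and 38.9 CPM on chow and 89.8 and 85.8 CPM on HFD (1.74 ± 0.31, adjusted p = 0.0291, in all members 0.191). Without adipose chow B none of these 3 passed (adjusted p = 0.083 each), nor without HFD B (0.135 for Fn1, 0.151 for Angptl4 and 0.0676 for S100a4). Angptl4 and S100a4 also lost their calls without adipose chow A (0.295 and 0.419), and S100a4 without adipose HFD A (0.253).

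Among the falls in adipose, Sdc1 (syndecan 1, a heparan sulfate proteoglycan) was at 84.8 and 129 CPM on chow and 33.9 and 41.7 on HFD (-1.46 ± 0.27, block, adjusted p = 0.0304). Ptn, the growth factor pleiotrophin, was at 107 and 469 CPM on chow and 46.9 and 41.7 CPM on HFD (-2.36 ± 0.40, adjusted p = 0.029), with adipose chow B far above the others. Ptn lost its call without adipose chow B (adjusted p = 0.294) or HFD B (0.471), and Sdc1 without any of the 4 adipose libraries (0.0549 to 0.369). The adipocyte gene Cfd was called lower too, at 2.42 and 69.6 CPM on chow and 0 and 2.32 CPM on HFD. The 8 adipocyte markers summed to 301 CPM in adipose chow B and 198 CPM in mesentery chow B but to 1.68 to 20.4 CPM in the other 6 libraries. Cfd was the only one of them called in adipose. In the remaining members of the mesentery Cfd and Car3 were called lower on HFD with the block. Scd1 had 6, 68, 1 and 0 UMIs in mesentery chow A, chow B, HFD A and HFD B. The part of adipocyte transcripts in these values was not tested. Cxcl9 was called higher on HFD. A UMI of it was found in 5 of 600 and 1 of 100 barcodes on chow (0.833 and 1%). On HFD it was found in 4 of 329 and 2 of 91 (1.22 and 2.2%). Mki67 was called lower from 2, 1, 0 and 0 barcodes in the 4 adipose libraries, so both calls rest on few cells. Cell cycle genes were rarely seen, and 3 of the 10 listed passed the filter on low counts.

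Diet effects differed between the tissues for few genes. Without the block no gene was called in all members (0%, 338 at an unadjusted p under 0.05) or in the remaining ones (0%, 142). With it, 10 were called in all members (0.112%), 4 with a more positive and 6 with a more negative change in the mesentery, and 5 in the remaining members (0.0634%). The count of 10 became 240, 34 and 80 without mesentery chow A, chow B and HFD A, and 0 without adipose chow A, chow B or HFD B. Stmn1 was called in both. For the remaining members it was at 18.6, 8.44, 133 and 112 CPM in mesentery chow A, chow B, HFD A and HFD B and at 63.0, 43.0, 46.9 and 46.4 in adipose, a difference of changes of 3.38 ± 0.45 (adjusted p = 0.00327). It was higher on HFD in both runs of the mesentery, while adipose HFD was lower in run A and higher in run B. In all members the call of Stmn1 was lost without any one of the 4 adipose libraries (adjusted p = 0.117 to 0.321). Plvap, which forms the diaphragms of endothelial vesicles and is also a blood endothelial marker, was at 103, 59.1, 179 and 316 CPM in the mesenteric and 622, 684, 311 and 485 CPM in the adipose libraries in the same order (2.28 ± 0.39, adjusted p = 0.0248). In all members that value was -0.36 ± 0.37 and not called. For Fn1 the diet effects were not called as different (1.34 ± 0.34, adjusted p = 0.222).

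Between the tissues, averaged over diets, most calls in all members were not made once the Marco group was left out. Without the block 32 of 8906 genes were called (0.359%), 25 higher and 7 lower in the mesentery, and 276 with it (3.1%), 199 higher and 77 lower. Without single libraries, in the order given for Lyve1, the first count was 50, 9, 5, 49, 3, 5, 0 and 0, and the second 479, 247, 112, 303, 116, 120, 173 and 177. In the remaining members 1 of 7891 was called without the block (0.0127%) and 125 with it (1.58%), 61 higher and 64 lower. The blocked lists share 61 genes, 58 in the same direction, which is 22.1% of the first and 48.8% of the second. Marco, Cyp1b1, Clec4g, Bmp2, Msr1, Ltbp2 and Itga2b were 7 of the 10 largest rises, and they define the group. Marco had 1076, 3868, 206 and 14 UMIs in the mesenteric libraries and 0 in the adipose ones. Csf1 (3.91 ± 0.37, adjusted p = 0.00634), Cxcl10 and Jam3 were among the list genes called without the block, and in the remaining members Csf1 and Jam3 were not called with the block (adjusted p = 0.429 and 0.494) and Cxcl10 did not pass the filter on low counts.

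Serpina3n, a secreted protease inhibitor, separated the tissues in the remaining members without any block. Here it was at 32.2, 35.5, 35.0 and 28.6 CPM in the mesenteric and 168, 139, 155 and 165 CPM in the adipose libraries, with narrow ranges and no overlap. The difference was -2.24 ± 0.21 (adjusted p = 0.0173; with the block adjusted p = 1.66e-06). In all members it was not called: the mesenteric libraries were at 99.8, 315, 53.5 and 28.3 CPM and the difference was -0.75 ± 0.37 (adjusted p = 0.929). Factor VIII (F8), a clotting factor made by lymphatic and sinusoidal endothelium and chosen after its values were seen, was at 35.6, 38.8, 58.0 and 79.1 CPM in the mesenteric and 165, 205, 132 and 174 CPM in the adipose libraries (-1.73 ± 0.17, block, adjusted p = 1.17e-05). This difference describes the remaining members only, since the Marco group held most F8 UMIs of the mesenteric chow libraries. All members of the mesenteric libraries held 412, 1298, 190 and 39 F8 UMIs and the remaining ones 21, 23, 63 and 36. The adipose libraries held 136, 100, 101 and 75.

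Further genes were lower in the mesentery than in adipose among the remaining members, to which the CPM here belong. Sparc, a collagen-binding matrix protein, was at 20.3, 87.8, 32.2 and 119 CPM in mesentery and 126, 291, 269.5 and 250.5 in adipose (-2.05 ± 0.26, block, adjusted p = 0.000168). In all members none of 14 matrix genes, Sparc among them, was called between the tissues, with or without the block. Sparc had 211, 779, 99 and 56 UMIs in all members of the mesenteric libraries and 12, 52, 35 and 54 in the remaining ones. The water channel Aqp1, also a blood endothelial marker, was at 246, 176, 376 and 207 CPM in the mesenteric and 991, 444, 704 and 397 CPM in the adipose libraries (-1.31 ± 0.15, adjusted p = 4.11e-05), and every adipose library was above every mesenteric one. The 13 blood endothelial markers summed to 1001 to 1439 CPM in mesenteric and 1441 to 2846 CPM in adipose remaining members, and their part in the difference of Aqp1 was not tested. Lrg1, a secreted glycoprotein that modulates TGF-beta signalling and was chosen after its values were seen, was at 188, 208, 251 and 259 CPM in the mesenteric and 569, 450.3, 458 and 768 CPM in the adipose libraries (-1.31 ± 0.17, adjusted p = 0.000168). The transcription factor Osr1 was lower in the mesentery in both sets of members (-2.75 ± 0.42 without the block in all members, adjusted p = 0.047; -2.21 ± 0.45 with it in the remaining ones, adjusted p = 0.0136). Ccl21a was lower in the mesentery in the remaining members, at 15602, 29539, 24423 and 38737 CPM in the mesenteric and 26349, 44012, 25426 and 52694 CPM in the adipose libraries (-0.46 ± 0.11, block, adjusted p = 0.0358), and run B exceeded run A in every group.

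Among genes higher in the mesentery in the remaining members, Comp, a thrombospondin family matrix protein, was at 389, 209, 116 and 65.9 CPM in mesentery and 44.8, 53.2, 48.2 and 27.8 in adipose, and all mesenteric libraries were above all adipose ones (1.93 ± 0.21, block, adjusted p = 1.55e-05). Ackr3 was at 623, 369.7, 197 and 143 CPM in the mesenteric and 119.9, 108, 95.1 and 55.7 CPM in the adipose libraries (1.63 ± 0.17, adjusted p = 1.38e-05). Ifi27l2a, an interferon-inducible gene, was at 193, 527, 361 and 657 CPM in the mesenteric and 53.3, 158, 91.1 and 267 CPM in the adipose libraries (1.72 ± 0.16, adjusted p = 9.36e-06). Its tissues overlap unless runs are matched, since run B was higher in each group. Of 15 interferon response genes in the remaining members, none was called higher and Cxcl9 and Gbp4 were called lower with the block, with a median of -0.09 beside -0.01 for all genes. In all members Cxcl10, Irf7, Ifit2 and Rsad2 of 16 were called higher with the block and none lower, with a median of 0.40 beside 0.00. Igfbp3 (1.95 ± 0.30, adjusted p = 0.00111) and H19 (2.38 ± 0.39, adjusted p = 0.00235) were higher as well. For Igfbp3 the difference lay in chow, at 171 and 321 CPM in mesentery and 14.5 and 30.7 in adipose. Igf2 was called too, but run A held 0, 1, 0 and 0 UMIs in its 4 libraries and run B 25, 56, 10 and 7. Adm (adrenomedullin, a peptide that lymphatic development needs) was lower in the mesentery, at 8.47, 27.0, 33.1 and 74.7 CPM in the mesenteric and 29.1, 127, 79.4 and 69.6 CPM in the adipose libraries (-1.34 ± 0.30, block, adjusted p = 0.025). On HFD in run B the mesentery was not the lower one, unlike in the other 3 matched pairs. Adm was 1 of 2 genes called among 10 of growth factor signalling in the remaining members, the other being Nrp1. Of 18 leukocyte traffic genes there, Ackr3 and Ccl7 were called higher and Tnfsf10 and Ccl21a lower, and of 14 matrix genes Col4a1 was called higher and Sparc and Sparcl1 lower. Positional transcription factors gave no call among 14 tested in all members and 12 in the remaining ones.

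**Figure D5:**
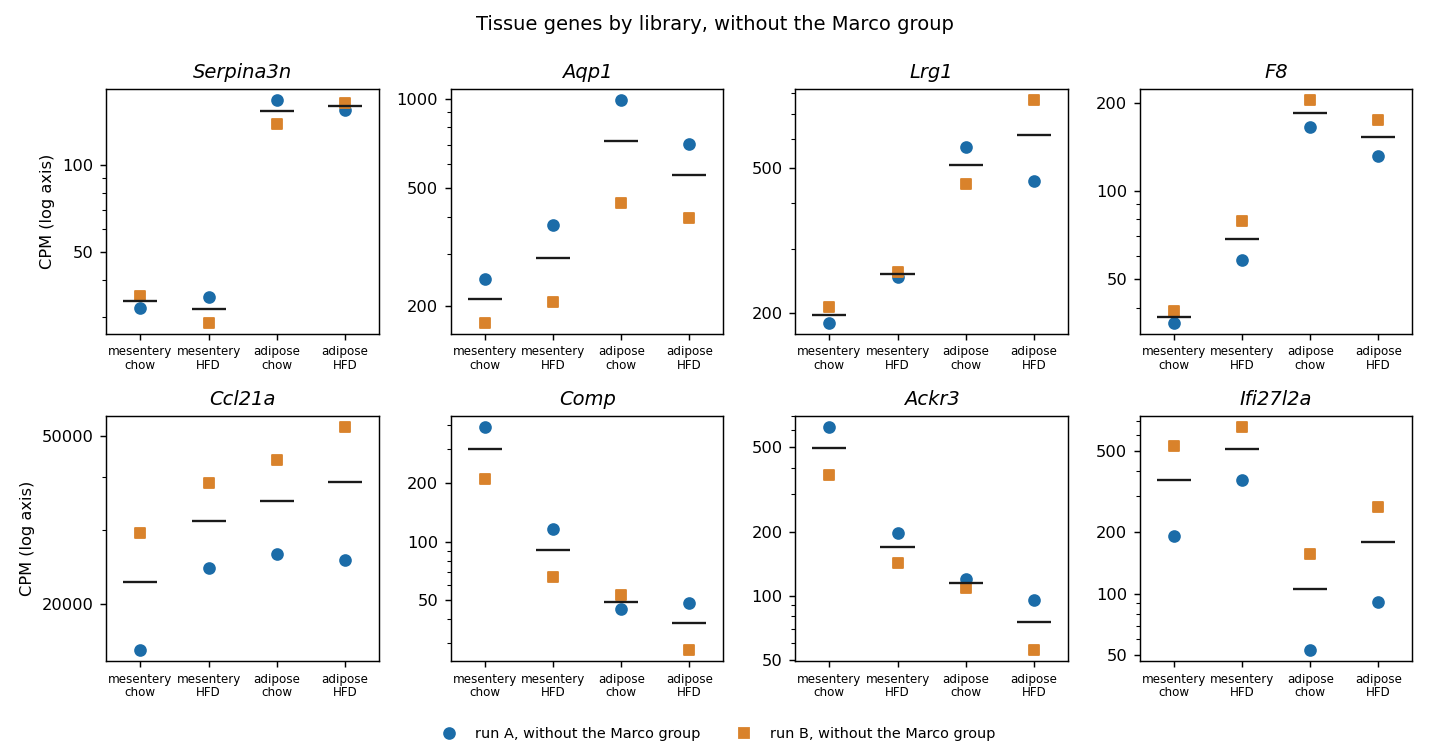
CPM (log axis) of 8 genes in the remaining members by group, with 1 point per library and a line at the mean of the 2. Serpina3n lies between 28.6 and 35.5 in the mesentery and between 139 and 168 in adipose. Aqp1, Lrg1 and F8 are also lower in all mesenteric libraries, Comp and Ackr3 are higher, and Ccl21a and Ifi27l2a separate the tissues only within a run.

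Against blood endothelium of the same libraries, no gene passed a test of the difference in response. Each library gave a summed profile of members and of its 203 to 4645 blood endothelial barcodes, and a term for the library was fitted. For the diet effect averaged over tissues 0 of 10058 genes were called (0%, 504 at an unadjusted p under 0.05). For the tissue effect the count was also 0 (0%, 514), and without the Marco group both were 0 of 9943 (458 and 385). On simulated counts the test of the diet difference recovered 3.03% of 2-fold and 55.1% of 4-fold differences (9853 genes), which limits what a count of 0 shows. None of the changes above is shown to be particular to lymphatic capillaries. With every low count gene kept, which tests 20644 genes, 125 and 179 were called. After thinning to 1000 UMIs, a UMI of Fn1 was left in 9.84, 7.86, 23.7 and 4.24% of the deep enough blood endothelial barcodes. These are mesentery chow A, chow B, HFD A and HFD B, so run A was higher on HFD and run B lower. Without thinning, a UMI of Tgfbi was found in 31.8, 8.83, 13.8 and 2.16% of the blood endothelial barcodes in that order. Angptl4 was found in 3.06, 18.4, 9.85 and 57.9%. Tgfbi, Angptl4 and S100a4 moved in each run as in the members, while Igfbp3, Stmn1 and Angpt2 moved oppositely between runs.

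Immediate early genes, which respond within minutes to tissue dissociation, differed by run. Fos was at 1792, 1504, 1103 and 1411 CPM in the run A libraries of mesentery chow, mesentery HFD, adipose chow and adipose HFD, and at 20.7, 26.1, 24.6 and 6.99 CPM in run B. Jun was at 2832, 3076, 1803 and 2742 CPM in run A and at 169, 192, 285 and 151 CPM in run B. Every run A library was far above every run B library for both genes, in tissue digested with a transcription inhibitor, actinomycin D, per the labels. Of 15 genes of this list, Ier3 and Zfp36 fell on HFD in all members of the mesentery with the block and Zfp36 in the remaining members. Zfp36, which destabilises cytokine messengers, was at 496 and 112 CPM in run A on chow and HFD and at 18.6 and 13.2 CPM in run B (-1.88 ± 0.31, adjusted p = 0.0018). Between tissues none of the 15 was called by edgeR in either set, with or without the block. The 7 fibroblast markers summed to 615 CPM in the remaining members of mesentery chow B and to 11.8 to 191 CPM in the other libraries. Igfbp6 was called lower on HFD from 6 and 272 chow UMIs, nearly all of them in that library, and its fall of -4.24 ± 0.97 (block) became -0.22 without it. Haemoglobin-led erythrocyte markers summed to 187 and 196 CPM in adipose run A and to at most 13.4 CPM elsewhere, and 3 haemoglobin genes were called lower in the mesentery with the block.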

How the data were processed

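The authors deposited 1 matrix of UMI counts per library, and the counts were used as deposited. Per the file headers the matrices were written by software version 3.0.2 (run A) and cellranger-5.0.0 (run B), and the submitters' processing notes name the mm10 build and Seurat 4.3.0. How strand and introns were handled is not stated in those sources. The members, the Marco group and the gene lists were chosen with earlier results of these data known.

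Counts were summed over the members of each library and tested with edgeR 4.0.16 (TMM scaling, low counts filtered, quasi-likelihood test, Benjamini-Hochberg adjustment), with the 4 groups sharing 1 estimate of the spread and the 9 genes of the rule left out. SE is the log2 fold change over the root of F. Class levels are scaled to the summed UMIs of the class. Where CPM is given, it is on the TMM scale of the set of members named. Blood endothelial barcodes had at least 3 of 8 blood markers. Because the labels say that the experiment was repeated, same-lettered libraries were taken as pairs. Their deviations from the group means correlated at 0.494 to 0.593 over 6 pairs of groups (8906 genes, pseudocount 5 CPM). The fit with the run as a replicate block was an alternative fixed together with the other tests.

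Named genes were the 10 largest rises and 10 largest falls per comparison among called genes with at least 20 UMIs and the same direction in both runs, and genes of 23 lists. Where the first fit called fewer than 20, calls of the blocked fit were used. On simulated counts the blocked fit recovered 29.6% of 2-fold and 82.1% of 4-fold changes of diet in the mesentery (8634 genes), and the fit without the block 0% of both. Simulated tissue differences (8587 genes) were recovered at 64.9 and 97.9% with the block and at 1.06 and 55.3% without. Automatic doublet calling marked 65 of 23996 barcodes and was taken as failed. Instead the highest scores were marked at 0.8% per 1000 barcodes, 766 in all (3.19%), and leaving them out was an alternative. Further alternatives used DESeq2 1.42.0, limma 3.58.1 (voom), no filter, 4 markers, 5% mitochondrial UMIs and thinning to 1000 UMIs. Leaving out the Marco group, or also members with 2 of 4 blood markers, was chosen after seeing the data. Intervals cover counting error only. Coordinates and sequences were not needed for these comparisons. A few results are not reported here.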

Additional observations from a re-analysis of the deposited data

Results flagged for a closer look

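For 10 genes in all members the effect of diet differed between mesentery and adipose by edgeR's test of the difference with the replicate block (log2 scale, mesentery minus adipose). Top2a (6.52), Stmn1 (2.65) and Prss23 (1.91) had the more positive change in the mesentery. Csf1 (-4.80), Tnc (-3.94), H2-Q7 (-3.47), H2-Q6 (-2.88), Psmb9 (-2.65) and Cd55 (-2.47) had the more negative one. Not all 10 are listed here. The 6 latter calls and that of Prss23 were not made once the Marco group was left out. H2-Q6 and H2-Q7 are near-identical copies, so their counts are uncertain. In the remaining members the test called Mki67 (12.2), Top2a (8.05), Stmn1 (3.38), Plvap (2.28) and Tmem252 (-5.62). Among these members Mki67 had UMIs in 0, 1, 5, 3, 2, 1, 0 and 0 barcodes over the 8 libraries and Top2a in 1, 0, 4, 1, 2, 2, 2 and 0, so these values rest on few cells and depend on the prior count. Tmem252 had UMIs in 4, 4, 2, 0, 4, 2, 5 and 2 barcodes. Groups of 2 libraries were too small to look for a library that stands apart.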

How the results depend on the processing

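Counts of called genes moved with the setting far more than directions did. For diet in the mesentery (12 called), the replicate block gave 403, DESeq2 97, DESeq2 with the replicate block 164, limma-voom 6 and no filter 352. Blocked fits gave 324 with 4 markers, 183 at 5% mitochondrial UMIs, 370 without doublets and 63 after thinning. Without the Marco group the counts were 0 and, with the block, 206, or 215 without mixed barcodes as well. Leaving out 1 library gave 0 to 12 without the block, 123 to 718 with it and 76 to 281 with it and without the Marco group. For diet in adipose (0 called) the settings that called genes were DESeq2 (1; with the block 2), no filter (20), thinning with the block (3), and the block without the Marco group (9) or mixed barcodes (14). Leaving out 1 library there gave 0 without the block, 0 to 23 with it and 0 to 32 without the Marco group.

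For the tissues (32 called) the replicate block gave 276, DESeq2 88 (141 with the block), limma-voom 0 and no filter 279. Blocked fits gave 140 with 4 markers, 144 at 5% mitochondrial UMIs, 274 without doublets and 72 after thinning. Without the Marco group 1 gene was called, 125 with the block and 142 without mixed barcodes. Leaving out 1 library gave 0 to 50, and 112 to 479 with the block. For the interaction (0 called) the replicate block gave 10, DESeq2 3 (34 with the block), no filter 71, 4 markers 39, thinning 6, and the Marco group left out 5, or 3 without mixed barcodes. Leaving out 1 library gave 0, and 0 to 240 with the block. Against blood endothelium no filter gave 125 (diet) and 179 (tissue), and leaving out 1 library 0, and 0 to 3. The cause of these changes was not tested, except that left-out libraries and thinning leave fewer data.

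The share of members, whose difference between tissues was 0.226 points, reversed to -3.84 at 5% mitochondrial UMIs, -1.19 after thinning, -1.39 without the Marco group and -0.314 among endothelial barcodes. In adipose the diet difference became 0.111 after thinning. Without single libraries the share differences ran from -10.4 to 19.2 (diet, mesentery), -17.8 to 11.7 (diet, adipose) and -5.46 to 5.65 (tissues). Plvap reversed in the interaction, at 0.84 after thinning, 2.32 without the Marco group, 2.28 with the block as well and 3.27 without mixed barcodes. Limd2 reversed with limma-voom (-0.10). Without 1 library values ran from -0.34 to 6.98 for Limd2, -10.56 to 0.32 for Igfbp6 (diet, mesentery), -1.90 to 0.52 for Cxcl9 and -0.47 to 0.0095 for Sparc (tissues). Precision was limited by 2 pools per group and by 77 to 100 members in 3 of the run B libraries.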
